A study of Mus musculus with 13 samples.

Results

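Lypd1, Vash1, Mgat5b, Scgb3a1, Gm13537 and Gm49744 are 6 transcripts that were lower in glomeruli of mice with experimental membranous nephropathy (MN) than in control glomeruli, at day 1, at day 5 or at both. They were chosen by name from the deposited expression table, which holds 35967 gene symbols, because earlier results of the same libraries showed them lower in MN. Their levels in MN and control are therefore given as a description, with no test. All 6 passed the filter on low values that left 14322 genes for testing, and the control libraries counted toward that filter. MN is a glomerular disease in which antibodies bind antigens on podocytes, the cells that form the outer layer of the filtration barrier. THSD7A is one of these podocyte antigens.

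Wild-type Balb/c mice received an intraperitoneal dose of 2.0 mg of rabbit IgG, either preimmune IgG (control, n = 5) or anti-THSD7A IgG, with glomeruli taken at day 1 (n = 4) or day 5 (n = 4). The model was run in male mice, and the antibody was transferred passively, so the mice carried rabbit IgG in all 3 groups. Control mice of both days formed 1 group, and the labels do not give the day of each. Glomeruli were isolated from kidneys perfused with magnetic beads, and each library came from 1 mouse.

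The 4 protein-coding members belong to unrelated pathways. LYPD1 is a small membrane-anchored protein of the Ly6/uPAR family, whose members carry a shared fold of finger-like loops and in part bind nicotinic acetylcholine receptors. VASH1 (vasohibin 1) is a tubulin carboxypeptidase that, together with its partner SVBP, removes the terminal tyrosine of alpha-tubulin, and it is also known as an inhibitor of vessel growth made by endothelial cells. MGAT5B is a Golgi enzyme that adds a branch to O-mannose-linked sugars, a modification best known on alpha-dystroglycan. SCGB3A1 is a small secreted protein of airway epithelium. Gm13537 and Gm49744 are processed pseudogenes, copies of messenger RNAs that were inserted back into the genome.

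The sequence of Gm13537 is shown first, because it bears on how its values can be read. Gm13537 (ENSMUSG00000082844) is a single-exon copy of 267 bases on the plus strand of GRCm39 at chr2:33213183-33213449, inside an intron of Ralgps1, which runs on the other strand. Over 228 bases, 85.4% of its length, it was 96.1% identical to the transcript of Lamtor5, which encodes a subunit of the Ragulator complex of the lysosome surface. The same stretch was 97.4% identical to a further pseudogene, Gm15190. The 3 stretches are printed 5′ to 3′, and capitals mark the bases that differ from Lamtor5.
Lamtor5: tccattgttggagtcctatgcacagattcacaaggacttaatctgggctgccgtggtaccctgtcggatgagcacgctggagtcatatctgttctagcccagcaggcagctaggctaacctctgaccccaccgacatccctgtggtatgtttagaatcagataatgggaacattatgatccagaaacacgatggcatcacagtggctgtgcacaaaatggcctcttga
Gm13537: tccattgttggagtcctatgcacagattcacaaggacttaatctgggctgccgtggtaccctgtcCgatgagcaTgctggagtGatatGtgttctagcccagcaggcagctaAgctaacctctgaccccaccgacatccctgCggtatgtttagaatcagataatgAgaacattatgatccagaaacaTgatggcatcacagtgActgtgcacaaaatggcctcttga
Gm15190: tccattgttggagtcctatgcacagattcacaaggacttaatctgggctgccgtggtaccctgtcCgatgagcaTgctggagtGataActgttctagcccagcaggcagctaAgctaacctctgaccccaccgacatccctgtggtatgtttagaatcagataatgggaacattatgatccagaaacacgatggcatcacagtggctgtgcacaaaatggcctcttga

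Gm13537 differed from Lamtor5 at 9 positions, counted from 1 at the start of the stretch with the base of Lamtor5 written first: G66C, C75T, C84G, C89G, G113A, T143C, G167A, C189T and G205A. The first 65 bases were identical, and the stretch ends with the stop codon of Lamtor5 in all 3 sequences. A read that covers none of the differing positions cannot be told apart between these genes. The longest run identical to Lamtor5 was 65 bases, shorter than the reads as sequenced. A full-length read within the stretch therefore covers a position that differs from Lamtor5, and a trimmed read may not. How reads were assigned among these genes was not tested, so the values of Gm13537 are uncertain.

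TPM are relative transcript numbers, corrected for length, that sum to about the same total in every library (989774 to 996064 over the listed symbols here). Read counts were not used, so the depth of each library is unknown and no counting error is attached to a value. A TPM of 0 was given for 46.5% to 49.5% of symbols, depending on the library. All 17 podocyte markers examined (such as Nphs1, Podxl and Synpo) passed the filter, and their summed TPM was 9227 to 12232 in control, 9951 to 12167 at day 1 and 10911 to 11509 at day 5. Thsd7a itself was lower at day 5 than in control (log2 fold change -0.79, SE 0.16, adjusted p = 0.0112, limma with Benjamini-Hochberg adjustment). Fold changes are on the log2 scale of TPM divided by a library factor (0.955 to 1.04) plus 0.5, which understates the change of transcripts with low TPM. In bulk glomeruli, fewer cells of a type and less RNA per cell cannot be told apart.

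Lypd1 and Vash1 were low at day 1 already and stayed near that level at day 5. Mgat5b and Gm13537 were lowest at day 5, with day 1 libraries between control and day 5 or spread across both. Scgb3a1 was low on both days, and Gm49744 was higher than control at day 1 and lower at day 5. Relative to the control mean, the means at day 5 were 29.6% for Lypd1, 62.8% for Vash1, 21.9% for Mgat5b, 15.7% for Scgb3a1, 20.3% for Gm13537 and 24.8% for Gm49744. Vash1 was thus the member with the smallest relative difference. At day 5, all 4 MN libraries lay below the lowest control library for each of the 6 transcripts, a pattern seen in 5.71% of the tested genes. At day 1 this held for 3 of the 6, against 3.32% of the tested genes. The members were chosen on these comparisons, so nothing is read from either share. The calling thresholds (adjusted p under 0.05 in limma and an absolute log2 fold change above 0.5) were met in the lower direction by 0.0349% of tested genes at day 1 and by 0.789% at day 5. The median log2 fold change over all tested genes was -0.00 at both days.

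**Figure D1:**
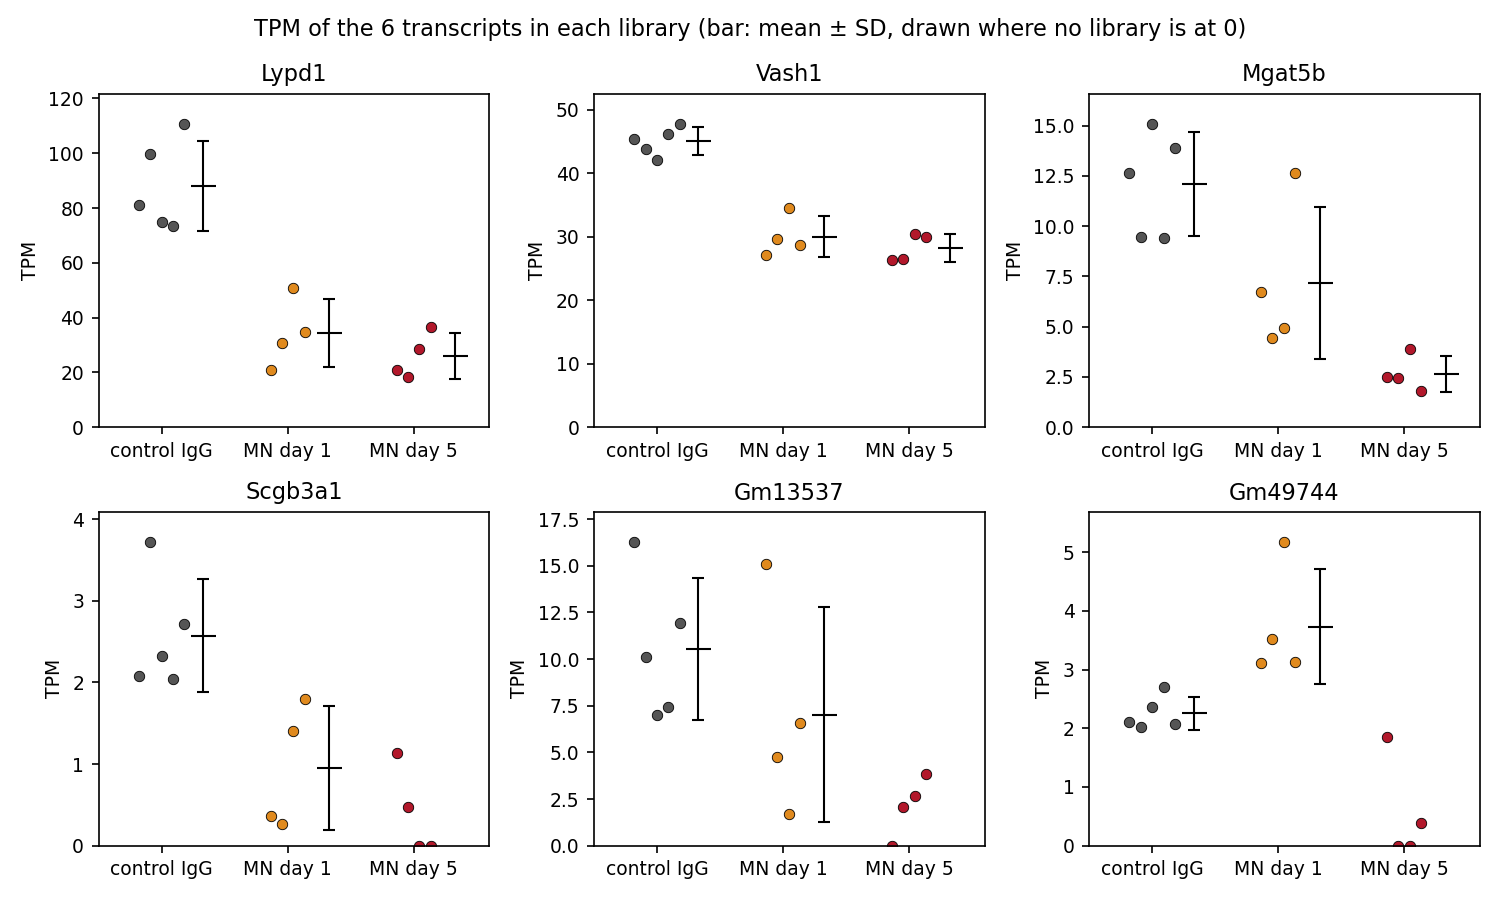
TPM (vertical axis, starting at 0) of the 6 transcripts in each of the 13 libraries, for control IgG (grey, n = 5), MN day 1 (orange, n = 4) and MN day 5 (red, n = 4), with the mean ± SD as a bar where no library of the group was listed at 0. All day 5 points lie below all control points in every panel, and day 1 points of Gm49744 lie above them.

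Lypd1 (ENSMUSG00000026344) lies on the minus strand of GRCm39 at chr1:125795357-125841150 and has 9 annotated transcripts. Its TPM in the control libraries was 81.0, 99.7, 74.9, 73.6 and 110.7, a level above that of 84.3% of the tested genes. At day 1 it was 21.0, 30.7, 50.8 and 34.9, and at day 5 it was 20.9, 18.2, 28.5 and 36.7. No MN library of either day reached the lowest control library, and the day 1 and day 5 libraries overlapped each other. Means were 88.0 ± 16.4 TPM (SD, n = 5) in control, 34.3 ± 12.4 (n = 4) at day 1 and 26.1 ± 8.33 (n = 4) at day 5. The log2 fold change against control was -1.35 (SE 0.23) at day 1 and -1.73 (SE 0.23) at day 5, which ranked Lypd1 as number 43 and number 22 from the lowest among tested genes. Between the days, the difference was -0.38 (SE 0.25). The size of this difference varied with single libraries, with -0.18 when MN day 1 replicate 3 was left out, -0.24 without MN day 5 replicate 2 and -0.59 without MN day 1 replicate 1. It was negative in all 13 fits with 1 library left out. Of the 8646 exonic bases of Lypd1, pooled over its 9 transcripts, 1202 (13.9%) overlap exons of Gpr39, a zinc-sensing receptor gene on the opposite strand. The share is larger for single transcripts. An annotated Lypd1 transcript of 1834 bases matched Gpr39 at 100% identity over 1204 bases, 65.6% of its length. The sources used here do not state whether the libraries keep strand. Gpr39 TPM was 3.50 to 6.18 in control, 3.74 to 5.92 at day 1 and 3.32 to 5.62 at day 5, so its level was far below that of Lypd1 and its groups overlapped.

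Vash1 (ENSMUSG00000021256), on the plus strand of GRCm39 at chr12:86725460-86738865, has 1 annotated transcript and showed the tightest replicates of the 6. Control libraries had 45.4, 43.8, 42.1, 46.3 and 47.8 TPM, with a coefficient of variation of 4.89%. Day 1 libraries had 27.2, 29.7, 34.5 and 28.8 TPM, and day 5 libraries had 26.3, 26.5, 30.4 and 30.0. The MN libraries of both days lay in 1 common range below all control libraries. Means were 45.1 ± 2.20 TPM (SD, n = 5), 30.0 ± 3.18 (n = 4) and 28.3 ± 2.20 (n = 4), that is 66.6% of control at day 1 and 62.8% at day 5. Against control, the log2 fold change was -0.54 (SE 0.07) at day 1 and -0.63 (SE 0.07) at day 5, and the difference between the days was -0.09 (SE 0.08), or -0.03 without MN day 1 replicate 3. Its fold change ranked number 285 from the lowest at day 1 and number 328 at day 5.

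Across the 13 libraries, Lypd1 and Vash1 were the most closely matched pair of members. The Pearson correlation of their log2 values was 0.965, and 0.798 after subtraction of each group's mean. In the 15 pairs of members, the correlation within groups ranged from -0.754 (Gm13537 with Gm49744) to 0.798, with a median of -0.04. These correlations describe 13 libraries that share their scaling. Among all tested genes, those most like Lypd1 were Usp46 (r = 0.950), Pcmtd1 (0.948) and Dynll2 (0.947), with 0.733, 0.664 and 0.759 within groups. Those most like Vash1 were Zfp664 (0.959), Pcmtd1 (0.958) and Niban2 (0.957), with 0.614, 0.657 and 0.598 within groups.

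The sequence upstream of Vash1 is shown because this window had no exact match in an annotated transcript on the same strand. Windows of the other 3 coding members overlapped such transcripts in part or in whole. Matches on the other strand were not sought, and there the antisense RNA Gm61155 spans chr12:86725104-86726592 of GRCm39, across the start of Vash1. The window holds the 250 bases before the RefSeq start of the gene, on the plus strand of GRCm38.p6 at chr12:86678450-86678699, a build other than that of the TPM table. Capitals mark the 20 CpG dinucleotides.
Vash1 upstream: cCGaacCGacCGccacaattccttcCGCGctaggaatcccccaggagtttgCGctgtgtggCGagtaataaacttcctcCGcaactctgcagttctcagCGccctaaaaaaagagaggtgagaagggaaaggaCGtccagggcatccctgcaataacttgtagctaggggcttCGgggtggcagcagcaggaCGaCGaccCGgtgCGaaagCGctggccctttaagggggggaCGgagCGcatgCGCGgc

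Its GC content was 60.0%, against a median of 52.4% over 32851 RefSeq windows of mouse genes. On both strands, none of the 6 windows of the 4 coding members (3 for Lypd1, 1 for each other gene) held TATAAA (the TATA box, in 12.37% of all windows), GCGNGGGCG (an EGR-type motif, 4.697%) or TGANTCA (an AP-1 motif, 6.749%). GGGCGG, the GC box, which can overlap GCGNGGGCG, occurred once in each Lypd1 window and not in the Vash1 window, and was in 32.74% of all windows. CANNTG, the E-box, was in 66.22% of all windows, in the 3 Lypd1 windows and in those of Mgat5b and Scgb3a1, but not in that of Vash1.

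Mgat5b (ENSMUSG00000043857) lies on the plus strand of GRCm39 at chr11:116809621-116878243, with 9 annotated transcripts. Control libraries had 12.6, 9.46, 15.1, 9.41 and 13.9 TPM. At day 1 the values were 6.70, 4.43, 4.95 and 12.6 TPM, and at day 5 they were 2.49, 2.45, 3.87 and 1.78. Of the day 1 libraries, 3 were below all controls and replicate 4 was within the control range. All day 5 libraries were below all day 1 libraries, a pattern found in 4.93% of tested genes. Means were 12.1 ± 2.58 TPM (SD, n = 5) in control, 7.18 ± 3.76 (n = 4) at day 1 (59.3% of control) and 2.65 ± 0.875 (n = 4) at day 5 (21.9%). The log2 fold change was -0.76 (SE 0.27) at day 1 and -1.98 (SE 0.27) at day 5, and day 5 differed from day 1 by -1.22 (SE 0.29). Its rank from the lowest fold change was 149 at day 1 and 13 at day 5. Micu2 (r = 0.950), Otud7b (0.950) and Astn2 (0.939) had the pattern most like it, with 0.729, 0.748 and 0.616 within groups.

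Scgb3a1 (ENSMUSG00000064057), on the plus strand of GRCm39 at chr11:49549630-49555945, was a low transcript in these glomeruli. Control libraries had 2.08, 3.72, 2.32, 2.04 and 2.71 TPM. Day 1 libraries had 0.364, 0.263, 1.41 and 1.79 TPM, and day 5 libraries had 1.14, 0.473, 0 and 0. All MN libraries were below all control libraries, and the day 1 and day 5 libraries overlapped. The day 1 libraries formed a low and a high pair within the same group. Its log2 fold change was -1.18 (SE 0.42) at day 1 and -1.89 (SE 0.42) at day 5. The day 5 value depended on the pseudocount and was -3.12 with 0.1 in place of 0.5, as 2 libraries are listed at 0. The difference between the days was -0.70 (SE 0.44), and it was -0.43 without MN day 1 replicate 4 and -1.07 without MN day 5 replicate 1. No other mouse transcript matched Scgb3a1 by sequence. Pqlc3 (r = 0.944, 0.895 within groups), Zcrb1 (0.921, 0.820) and Pcnp (0.916, 0.800) were the genes most like it.

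**Figure D2:**
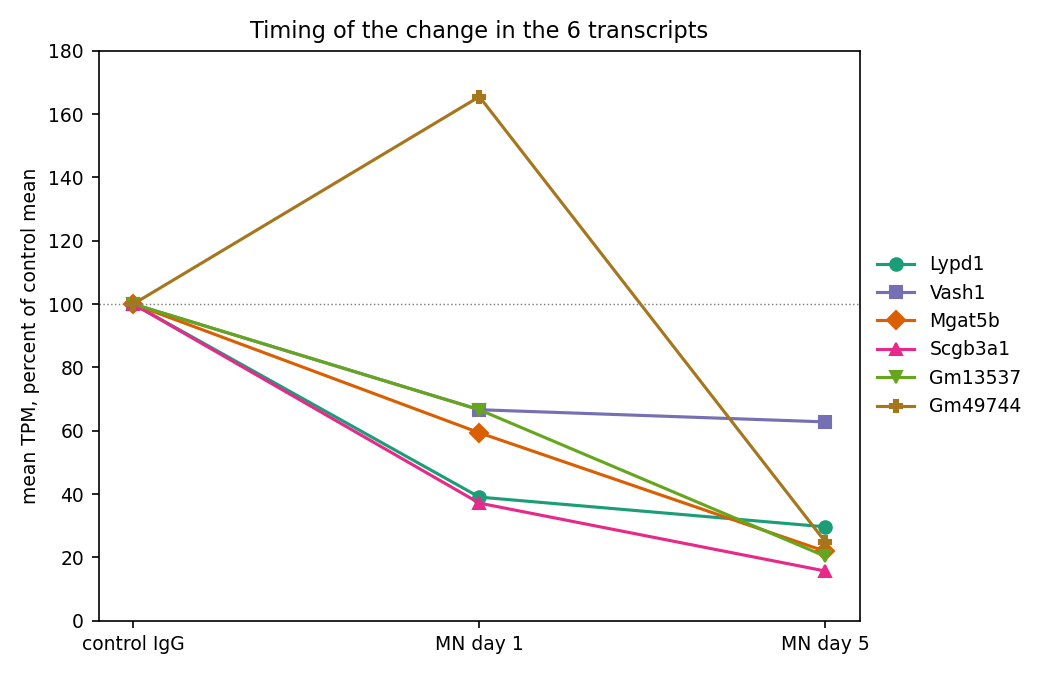
Mean TPM of each of the 6 transcripts as a percentage of its control mean (vertical axis) for control IgG, MN day 1 and MN day 5 (horizontal axis, not to scale in time), with lines joining the group means. At day 1 the means were 39.0% for Lypd1, 66.6% for Vash1, 59.3% for Mgat5b, 37.1% for Scgb3a1, 66.6% for Gm13537 and 166% for Gm49744, and at day 5 all 6 were below 100%.

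Gm13537 had the largest residual SD of the 6 on the log2 scale, 1.04. Control libraries had 16.3, 10.1, 6.98, 7.42 and 11.95 TPM, day 1 libraries had 15.1, 4.75, 1.69 and 6.56, and day 5 libraries had 0, 2.07, 2.68 and 3.82. Day 1 values covered nearly the whole span of the data, whereas all day 5 libraries were below all controls. The log2 fold change was -0.78 (SE 0.61) at day 1 and -2.35 (SE 0.61) at day 5, where it ranked number 3 from the lowest. The day 1 value was -1.25 without MN day 1 replicate 1 and -0.29 without MN day 1 replicate 3. Day 5 differed from day 1 by -1.57 (SE 0.65), and by -0.89 without MN day 5 replicate 1, the library listed at 0.

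Lamtor5 was measured at a far higher level than its copy and did not pass the test. Its TPM was 148 to 162 in control, 144 to 160 at day 1 and 149 to 168 at day 5. The log2 fold change was 0.02 (SE 0.06, adjusted p = 0.946) at day 1 and 0.04 (SE 0.06, adjusted p = 0.791) at day 5 (limma with Benjamini-Hochberg adjustment). Gm13537 amounted to 4.32% to 10.1% of the Lamtor5 TPM in control libraries, 1.05% to 10.5% at day 1 and 0% to 2.51% at day 5. Gm15190 was listed at 0 in 8 of the 13 libraries and reached 4.99 TPM at most. The summed TPM of the 3 genes was 156 to 177 in control, 153 to 167 at day 1 and 154 to 168 at day 5, so these ranges overlapped. Whether the values of Gm13537 reflect its own transcript or the assignment of Lamtor5 reads was not tested. Plekhg5 (r = 0.893, 0.779 within groups), Zcchc3 (0.883, 0.733) and Large2 (0.881, 0.741) had the pattern most like that of Gm13537.

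**Figure D3:**
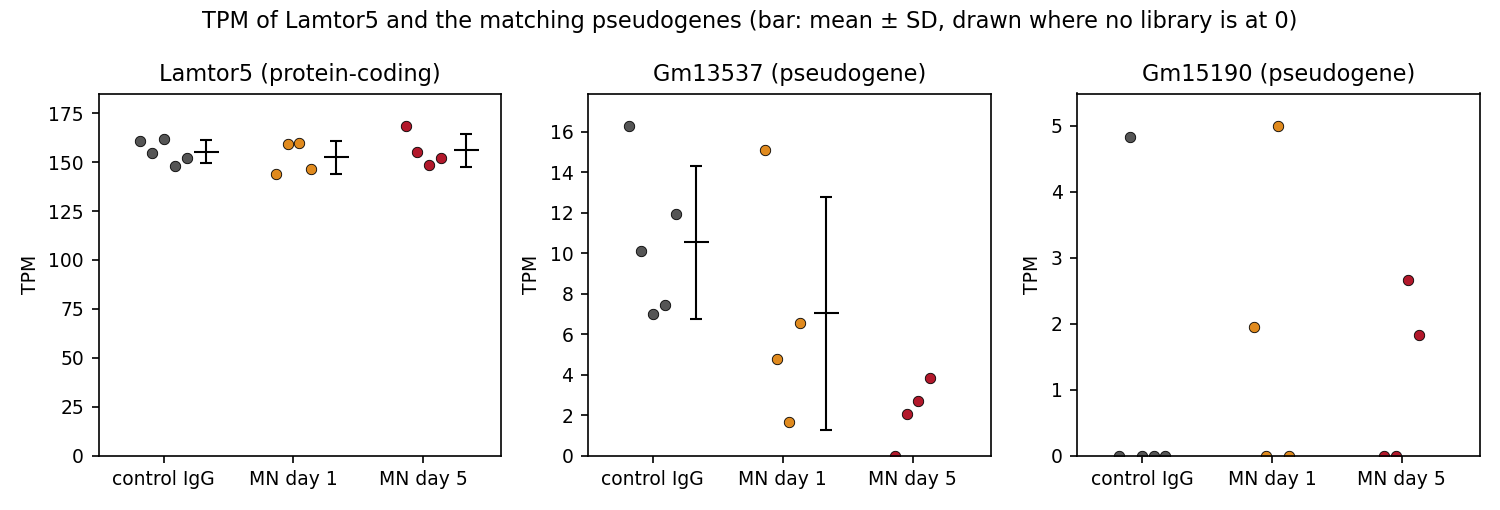
TPM (vertical axes, each starting at 0 and on its own scale) of Lamtor5 and of the pseudogenes Gm13537 and Gm15190 in each library of control IgG, MN day 1 and MN day 5, with the mean ± SD where no library of the group was listed at 0. Lamtor5 lies between 144 and 168 TPM in all 13 libraries, while Gm13537 is at most 3.82 TPM at day 5.

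Gm49744 (ENSMUSG00000116942) is a processed pseudogene of 452 bases on the minus strand of GRCm39 at chr16:20384327-20384778. Control libraries had 2.11, 2.02, 2.36, 2.70 and 2.08 TPM. Day 1 libraries had 3.10, 3.53, 5.17 and 3.13 TPM, and day 5 libraries had 1.85, 0, 0 and 0.393. All day 1 libraries lay above the control libraries, as for 0.908% of tested genes, and all day 5 libraries lay below them. Gm49744 was the 1 gene of 14322 tested with both (0.00698%). It was chosen on these libraries, so nothing is read from these shares. The log2 fold change was 0.64 (SE 0.38) at day 1 and -1.66 (SE 0.38) at day 5, and day 5 differed from day 1 by -2.29 (SE 0.40). With a pseudocount of 0.1 the day 5 value was -2.86. Its closest match was Eci1, a mitochondrial enzyme of fatty acid oxidation, at 67.2% identity over 311 aligned bases. Eci1 had 77.8 ± 6.08 TPM (SD, n = 5) in control, 79.5 ± 5.79 (n = 4) at day 1 and 68.9 ± 3.92 (n = 4) at day 5. It was not called on either day (day 5 log2 fold change -0.14, adjusted p = 0.364, limma). Its day 5 libraries (63.6 to 71.9 TPM) lay below all control (72.1 to 84.9) and all day 1 libraries (73.5 to 87.5). Against control this held for 5.71% of tested genes, and against day 1 for 4.93%. Dlat (r = 0.892, 0.687 within groups), Ndrg2 (0.857, 0.614) and Dtwd1 (0.854, 0.724) were most like Gm49744.

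Tubular markers were higher at day 1 than at day 5. The summed TPM of 12 proximal tubule markers was 3302 to 9655 in control, 5126 to 8450 at day 1 and 3648 to 4308 at day 5. For 10 distal nephron markers, 8 of which passed the filter, the sums were 262 to 533, 506 to 918 and 350 to 481. At day 1, all 12 proximal (median log2 fold change 0.73) and all 8 distal markers (0.66) had positive values. None of these 20 was called at day 1 (limma), where 0.0908% of all tested genes were called. Of the 20, 8 proximal and 4 distal markers had an unadjusted p under 0.05. Over all tested genes, 12.6% had an unadjusted p under 0.05 at day 1. Between day 5 and day 1, all 20 had negative values, and Cyp4b1, Aqp2 and Calb1 were called as lower. In that contrast, 57 of the 14322 tested genes were called as lower, and 1.81% were called in either direction. An unadjusted p under 0.05 (limma) was found for 7 proximal and 6 distal markers, against 15.5% of all tested genes. None of the defining markers was at 0 in every library. The part of tubular RNA in the values of Gm49744 or of the other members was not tested.

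Relatives and pathway partners of the coding members were examined in the same fits. Of 183 genes in 6 lists (Ly6/uPAR proteins, nicotinic receptor subunits, N-glycan branching, O-mannose glycans, secretoglobins and tubulin tail enzymes), 63 passed the filter. None was called at day 1, where 0.0908% of all tested genes were called. On that day 7 had an unadjusted p under 0.05, against 12.6% of all tested genes. At day 5, 1 was called as higher and 1 as lower, against 2.42% and 0.789% of all tested genes (3.21% in either direction), and 12 had an unadjusted p under 0.05, against 20.1% of all tested genes. None was called between day 5 and day 1, where 1.81% of all tested genes were called. In that contrast 8 had an unadjusted p under 0.05, against 15.5% of all tested genes. All calls came from limma with Benjamini-Hochberg adjustment over the 14322 genes.

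Among 45 Ly6/uPAR genes, 14 were tested, and their median log2 fold change at day 5 was 0.06. Ly6g6d was the 1 gene called. It had 4.70 ± 0.671 TPM (SD, n = 5) in control and 6.93 ± 0.382 (n = 4) at day 1, and rose to 9.55 ± 2.23 (n = 4) at day 5 (log2 fold change 0.97, SE 0.14, adjusted p = 0.00119 in limma). Lypd6, a close relative of Lypd1, had 27.3 ± 3.67, 28.7 ± 12.3 and 28.2 ± 9.88 TPM in the 3 groups (day 5 adjusted p = 0.986 in limma). Lynx1, a nicotinic receptor modulator, had 4.58, 5.52 and 5.23 TPM on average (day 5 adjusted p = 0.476 in limma). Lypd6b was too low to be tested, at 0.0772 to 0.503 TPM in control. Plaur, the urokinase receptor, averaged 76.5, 83.0 and 89.8 TPM. The highest member, Ly6c1, an endothelial surface protein, averaged 1128, 1162 and 1144 TPM.

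Of 16 nicotinic receptor subunits, 4 were tested, with a median log2 fold change of -0.05 at day 5. Chrnb1, the muscle-type beta subunit, had the highest level, 59.6, 58.8 and 60.6 TPM on average in control, day 1 and day 5. Chrna4 had 3.48 ± 2.78 TPM (SD, n = 5) in control, 8.64 ± 4.76 (n = 4) at day 1 and 2.63 ± 1.41 (n = 4) at day 5. Its day 1 log2 fold change of 1.34 (SE 0.56) did not pass the test (adjusted p = 0.362, limma). Chrna7 averaged 1.21, 0.972 and 1.62 TPM, and Chrnb2 was not tested at 0.372 to 1.00 TPM over all 13 libraries.

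N-glycan branching (14 of 17 genes tested) had a median log2 fold change of 0.04 at day 5. Mgat5, the paralog of Mgat5b that acts on N-glycans, had 131 ± 22.3 TPM (SD, n = 5) in control, 135 ± 15.4 (n = 4) at day 1 and 139 ± 16.1 (n = 4) at day 5. Its day 5 log2 fold change was 0.14 (SE 0.14, adjusted p = 0.652, limma). At 65.9% identity over 785 bases, Mgat5 was the one transcript that matched Mgat5b, below the 90% set for a lookalike. Mgat3, which adds the bisecting sugar, averaged 10.4, 11.97 and 10.3 TPM, and Mgat1, the first enzyme of branching and the highest of the list, averaged 218, 218 and 241 TPM.

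In the O-mannose list, all 14 genes were tested, with a median log2 fold change of -0.02 at day 5. Pomgnt1, which builds the sugar that MGAT5B extends, averaged 61.1, 58.7 and 57.5 TPM (day 5 adjusted p = 0.702, limma). Large2, which elongates the laminin-binding glycan of alpha-dystroglycan, was the 1 gene called as lower, with 3.32 ± 0.600 TPM (SD, n = 5) in control, 2.40 ± 0.635 (n = 4) at day 1 and 1.48 ± 0.912 (n = 4) at day 5. Its day 5 log2 fold change was -1.02 (SE 0.28, adjusted p = 0.0483, limma). The call held in 4 of 8 other settings and, when single libraries were left out, in 2 of 13 fits, with adjusted p from 0.0121 to 0.147 over these settings and fits (limma). Dag1, which encodes dystroglycan itself, rose at day 5 from 297 ± 20.9 TPM (n = 5) in control to 399 ± 31.0 (n = 4), with a log2 fold change of 0.46 (SE 0.08, adjusted p = 0.00357, limma) that is under the fold threshold.

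Among 23 tubulin tail enzymes and partners, 17 were tested, and the median log2 fold change at day 5 was -0.09. Svbp, the partner that VASH1 needs and the highest of the list, had 54.8 ± 6.68 TPM (SD, n = 5) in control, 53.0 ± 7.18 (n = 4) at day 1 and 56.8 ± 5.42 (n = 4) at day 5 (day 5 adjusted p = 0.697, limma). Ttl, the ligase that restores the tyrosine, averaged 27.2, 25.6 and 24.7 TPM (day 5 adjusted p = 0.757, limma). Vash2, the paralog of Vash1, was not tested at 0.218 to 1.58 TPM over all 13 libraries. It matched Vash1 at 67.8% over 702 bases. None of 68 further secretoglobin genes passed the filter. Of these, 62 were listed at 0 in every library, Scgb3a2 among them, and the highest single value was 2.08 TPM (Scgb1b30).

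**Figure D4:**
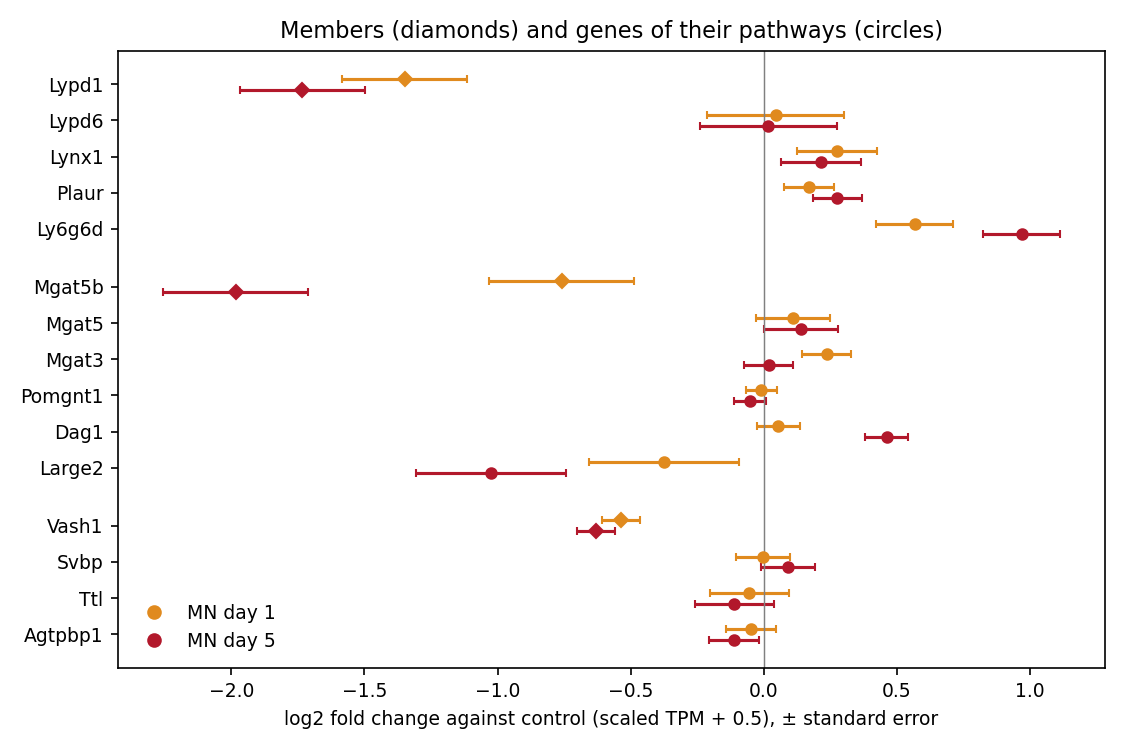
Log2 fold change against control (horizontal axis, on the scale of scaled TPM + 0.5, ± standard error) at MN day 1 (orange) and MN day 5 (red) for Lypd1, Mgat5b and Vash1 (diamonds) and for genes of their pathways (circles). The diamonds lie between -0.54 and -1.98, and of the circles Large2 (-1.02 at day 5) and Ly6g6d (0.97 at day 5) were called.

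Genes next to the members were examined for a regional difference. The nearest tested gene on each side and the overlapping genes made 17, of which 14 were tested. Of these, 0 were called at day 1 (1 with an unadjusted p under 0.05, limma), where 0.0908% of all tested genes were called. At day 5, 1 was called (3 with an unadjusted p under 0.05), against 3.21% of all tested genes. Between the days, 0 were called (3 with an unadjusted p under 0.05), against 1.81% of all tested genes. For an unadjusted p under 0.05, the shares of all tested genes were 12.6% at day 1, 20.1% at day 5 and 15.5% between the days. Angptl2, a secreted angiopoietin-like protein gene 74931 bases to the left of Gm13537 and likewise within Ralgps1, fell from a range of 385 to 435 TPM in control to a range of 219 to 288 TPM at day 5 (log2 fold change -0.58, SE 0.10, adjusted p = 0.00287, limma), with no overlap. Its day 1 libraries had 295 to 427 TPM. Ralgps1, the host gene of both, had 1.89 to 4.75 TPM in control and 2.22 to 3.24 at day 5, and was not called. On chromosome 11, Flt4 and Cnot6 flank Scgb3a1 at 6048 and 5938 bases, with 33.1 to 50.2 and 56.8 to 60.8 TPM in control and 39.3 to 43.2 and 61.2 to 63.3 at day 5. Neither was called. The antisense RNAs Gm61155 and Gm60083, which overlap Vash1, and Gm74343, which overlaps Mgat5b, were not analysed here.

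Markers of the glomerular cell types gave the setting of these values. At day 5, 2 of 17 podocyte markers were called as lower (Plce1, log2 fold change -0.60, and Ddn, -0.58) and 1 as higher (Cdkn1c, 0.72), with a median of -0.18, against 0.789% of all tested genes called as lower and 2.42% as higher. Synpo (-0.46, adjusted p = 0.00197) and Cd2ap (-0.29, adjusted p = 0.0117) were also lower in limma, under the fold threshold. Of the 17, 10 had negative and 7 positive values, and 7 had an unadjusted p under 0.05, against 20.1% of all tested genes. At day 1, 12 were negative and 5 positive, with none called and 6 at an unadjusted p under 0.05, against 12.6%. None of the 11 endothelial markers was called (4 with an unadjusted p under 0.05, limma), with positive values in all 11 at day 5 and a median log2 fold change of 0.21. Their summed TPM was 6602 to 8878 in control, 7056 to 8501 at day 1 and 8250 to 8623 at day 5. Of the 11, Emcn was higher at day 5 (0.29, adjusted p = 0.0127, limma), under the fold threshold. Mesangial markers summed to 1738 to 2625, 2207 to 2569 and 2654 to 3249 TPM, with Myl9 called as higher at day 5 (0.62), positive values in 9 of 10 and a median of 0.17. Parietal markers summed to 33.8 to 44.0, 38.5 to 64.2 and 42.8 to 73.8 TPM, with Cldn1 called as higher (1.08). Leukocyte markers summed to 30.6 to 55.5, 40.8 to 65.4 and 28.5 to 60.7 TPM, and none of the 6 tested was called at day 5 (1 with an unadjusted p under 0.05, limma). The part of cell composition in the values of the 6 members was not tested.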

How the data were processed

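Glomerular RNA of 13 mice was sequenced (5 control, 4 MN day 1, 4 MN day 5), and groups and replicate numbers were taken from the sample titles. The authors trimmed paired-end reads (FastQC 0.11.9 and Trimmomatic 0.39 in the submitters' processing notes), quantified them with kallisto 0.46.2 against GRCm39 and deposited TPM per gene symbol, so depth is unknown. The authors tested counts with DESeq2, which were not used here.

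Library factors were the median of ratios over 15772 genes, and log2(TPM / factor + 0.5) was analysed. Genes reaching a TPM of 1 in 4 or more libraries entered limma 3.58.1, run in R 4.3.3 (all 3 groups in 1 fit, eBayes with a trend), with Benjamini-Hochberg adjustment within each of 3 contrasts. A call needed adjusted p under 0.05 with a log2 fold change beyond 0.5 in either direction. No other test was run on the members. The procedure was tested on simulated data. P-values rest on 1 library per mouse.

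The members and gene lists were chosen with earlier results of these data known. Named genes were the members, called genes of the lists, direct paralogs and partners, the highest gene of each list, the nearest tested neighbours and overlapping genes, the 3 genes most correlated with each member, and Thsd7a. Plaur and the markers and lookalikes given were named beside that rule. Loci came from the GENCODE annotation of GRCm39, upstream windows from RefSeq (GRCm38.p6; the 4 coding members matched), and similar transcripts from BLAST+ 2.17.0. Python 3.11.15 with matplotlib 3.10.9 drew the plots. The alternatives were pseudocounts of 0.1 and 1, other scalings, filters, eBayes without trend, the 2 compared groups alone, a replicate block, adjusted p alone, and each library left out.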

Additional observations from a re-analysis of the deposited data

Results flagged for a closer look

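Gm49744 had log2 fold changes of opposite sign on the 2 days, 0.64 at day 1 and -1.66 at day 5. All 4 day 1 libraries lay above the highest control library and all 4 day 5 libraries below the lowest. The difference between the days was -2.29, and this difference was not tested, since the transcript was chosen on these libraries. In 18 sets of 4 or 5 libraries (6 members in 3 groups), no single library stood apart by Dixon's criterion.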

How the results depend on the processing

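None of 386 alternative values of the members reversed in sign, and 4 moved by more than the residual SD, all with a pseudocount of 0.1: the day 5 values of Scgb3a1 (-3.12) and Gm49744 (-2.86), and their differences between the days (-1.51 and -3.59). With a TPM of at least 1 required in every library, Scgb3a1, Gm13537 and Gm49744 had no value, and with only day 5 and day 1 in the fit Scgb3a1 had none between the days. Leaving out 1 library kept the sign of every member in each contrast. The number of genes called at day 1 (13) was 6 with no filter, 7 without the trend and 2 with only the compared groups, and 3 to 218 with 1 library left out, the highest without control replicate 5 and the lowest without MN day 1 replicate 1. At day 5 (460) it was 876 with the adjusted p alone and 326 to 474 with 1 library left out. Between day 5 and day 1 (259) it was 153 with the every-library filter, 423 with only the compared groups, and 150 (without MN day 5 replicate 2) to 437 (without control replicate 5). The 2 calls in the pathway lists at day 5 became 1 with a pseudocount of 0.1, no filter, the every-library filter or only the compared groups, and were 1 to 3 with 1 library left out. Neighbouring genes called between the days numbered 0 to 1, with 1 without MN day 1 replicate 2. Replicate numbers did not pair the libraries: deviations of same-numbered libraries correlated at -0.0563 to 0.0913, and 2 of 13 libraries correlated best with their own number. The replicate block gave 149 calls at day 1, 348 at day 5 and 331 between the days. The causes of these shifts were not tested. TPM give no counting error, which limits Scgb3a1, Gm13537 and Gm49744 most.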
